A study of Mus musculus with 8 samples.

Results

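The corticotropin-releasing hormone (CRH) system was followed in supporting cells of the neonatal mouse cochlea through 5 genes, *Crhr1*, *Crhr2*, *Crh*, *Crhbp* and *Ucn*, out of 36536 genes counted in each library. They were chosen by gene symbol in the NCBIM37 annotation, and the system was selected on measured values, since *Crhr1* was known from these same libraries to be higher in GFP+ cells and to rise by postnatal day (P) 6. Cells were sorted at P1 and P6 from freshly dissected, untreated cochleas of *LFng-GFP* mice, a BAC transgenic strain with the full name B6;FVB-Tg(Lfng-EGFP)HM340Gsat/Mmucd in which regulatory sequence of *Lfng*, a modifier of Notch receptors, drives GFP. The 4 groups, P1 GFP+, P1 GFP-, P6 GFP+ and P6 GFP-, held 2 replicate RNA-seq libraries each, and GFP- cells came from the same transgenic strain. GFP marks most but not all supporting cell types, the GFP+ libraries were made from the brightest cells only, each library held many sorted cells from a number of cochleas that is not given in the sources used here, and the GFP- fraction held cells of many other types.

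CRH is the peptide that the hypothalamus releases to make the pituitary secrete ACTH, and with it the adrenal gland secrete corticosteroids. CRH and its relatives, the urocortins, act on a pair of class B G protein-coupled receptors encoded by *Crhr1* and *Crhr2*, which couple mainly to Gs and raise cyclic AMP, and a secreted protein encoded by *Crhbp* binds the peptides and keeps them from the receptors. CRH signalling also takes place locally outside the hypothalamus, and the cochlea is one of the tissues in which its peptides and receptors have been described.

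Gene counts per library ranged from 17769024 to 67695039, with the fewest in P6 GFP+ replicate 1, and levels are given as counts scaled to 1000000 gene counts (CPM). All 8 supporting cell markers examined, *Lfng*, *Sox2*, *Prox1*, *Fgfr3*, *Hes5*, *Jag1*, *Lgr5* and *Cdkn1b*, were higher in GFP+ cells at both ages, with summed levels of 5936 to 9407 CPM in GFP+ and 264.3 to 398 CPM in GFP- libraries. Hair cell transcripts were also present in GFP+ cells, where 6 of 9 hair cell markers were higher than in GFP- cells at both ages. P6 GFP+ replicate 2 stood apart from replicate 1 in transcripts of other cells, its summed endothelial markers being 3.82 times and its summed mesenchymal markers 3.50 times those of replicate 1. P1 GFP- replicate 2 stood apart in neuronal transcripts, the 8 neuronal markers summing to 2.53 times those of replicate 1. In all 4 groups the replicates differed by more than counting noise, the chi-square relative to its degrees of freedom being 15.1 to 58. In bulk RNA of this kind, fewer cells of a type and less RNA per cell cannot be told apart.

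*Crhr1* (ENSMUSG00000018634, chromosome 11, 103994169 to 104036837, forward strand, 13 exons in NCBIM37) encodes the receptor with high affinity for CRH. The study's in situ hybridization probe for this transcript was made with a pair of primers, shown here because they place the probe on the gene whose counts are described:

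forward primer: aagcactccatcagagccc
reverse primer: gttcccagatttctaccgc

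Both primers lay in exon 13, the last exon (104035702 to 104036837). The forward primer matched the forward strand at chr11:104035744-104035762 within the coding sequence, and the reverse primer matched the opposite strand at chr11:104036285-104036303 in the 3′ UTR. The product therefore spans 560 bases, of which 96 are coding and 464 belong to the 3′ UTR. The study lists the *Crhr1* in situ signal as ubiquitous at P1 and in supporting cells at P6, and counts the gene among those specific to P6. Its discussion places *Crhr1* in pillar cells.

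*Crhr1* was measured at 22.95 and 23.58 CPM in P1 GFP+ cells, and at 0.317 and 0.412 CPM in P1 GFP- cells. At P6 it stood at 287.9 and 271.5 CPM in GFP+ libraries, and at 1.12 and 0.665 CPM in GFP- libraries. The groups did not overlap, and the order from high to low was P6 GFP+, P1 GFP+, P6 GFP- and P1 GFP-. These values chose the gene and are given as a description without a test. The GFP+ level was 63.9 times the GFP- level at P1 and 313.6 times at P6, and the GFP+ level at P6 was 12.02 times that at P1. The replicates of the P6 GFP+ group lay close together for *Crhr1*, with replicate 2 at 0.943 times replicate 1, although replicate 2 held more endothelial and mesenchymal transcripts. The 9 hair cell markers summed to 713.5 and 824.5 CPM at P1 and 447.4 and 519.2 CPM at P6 in GFP+ cells. Most of each sum was *Myo6*, at 442.2 and 475.5 CPM at P1 and 250.2 and 325.1 CPM at P6. *Myo6* stood at 311.6 to 406 CPM in GFP- libraries. From P1 to P6 in GFP+ cells the means of *Tmc1* and *Slc17a8* rose and those of the other markers fell. By edgeR 0 of the 9 were called higher and 2 lower. The part of hair cells in the *Crhr1* level was not tested.

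**Figure D1:**
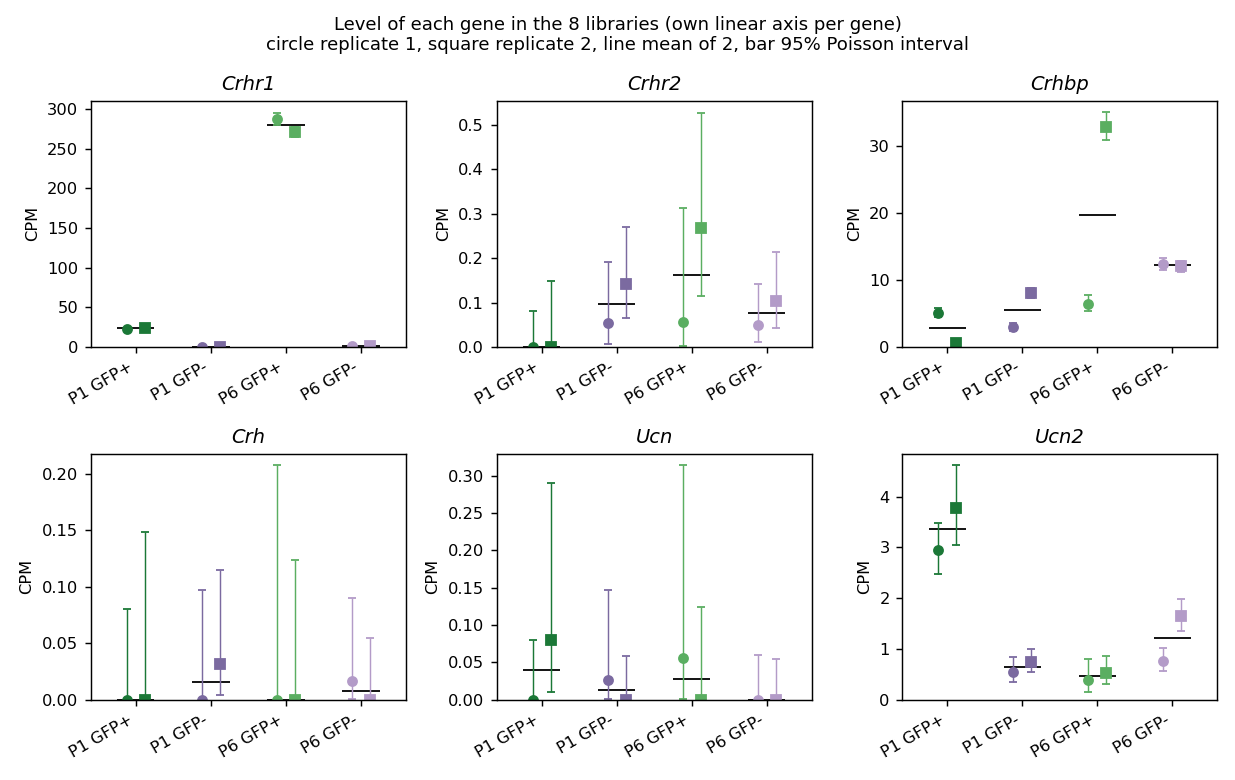
CPM of *Crhr1*, *Crhr2*, *Crhbp*, *Crh*, *Ucn* and *Ucn2* in each library (y axis, linear, own range per gene) against group (x axis), with circles for replicate 1, squares for replicate 2, a line at the mean of 2 libraries and bars for the 95% Poisson counting interval. *Crhr1* reached 287.9 and 271.5 CPM in P6 GFP+ cells, *Crhr2*, *Crh* and *Ucn* stayed below 0.3 CPM in every library, and the 2 libraries of a group lay far apart for *Crhbp* in every group but P6 GFP-.

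Within each library, levels of all 34391 genes with an annotated length were ordered by CPM per kb of exon. *Crhr1* ranked 6452 and 6491 at P1 and 390 and 341 at P6 in GFP+ cells, so that it moved from the top 18.8% to 18.9% to the top 0.992% to 1.13% of genes. It ranked 70 of 18682 tested genes by the log2 fold change between GFP+ and GFP- cells at P1, and 12 of 18294 at P6. Among the 493 genes that were higher at P6 than at P1 in GFP+ cells, it was number 85 by fold change. These ranks describe the values that chose the gene and are no test.

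The GFP- levels of *Crhr1* entered the ratio between the fractions that chose it. Their age difference is therefore given as a description without a test. The log2 fold change from P1 to P6 was 1.46, with a standard error (SE) of 0.45, and both P6 libraries lay above both P1 libraries. Over the alternatives tried it ran from 1.01 without P6 GFP- replicate 1 to 1.83 without P6 GFP- replicate 2. These levels rest on 12 and 26 counts at P1 and 69 and 45 counts at P6. The GFP- level amounted to 1.57% of the GFP+ level at P1 and 0.319% at P6. For the 8 supporting cell markers the same share ran from 0.344% to 12.7% at P1 and from 0.568% to 17.8% at P6, and for *Lfng*, whose regulatory sequence drives the transgene, it was 0.941% and 1.22%. Whether the *Crhr1* counts of the GFP- libraries came from supporting cells left in that fraction was not tested.

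*Crhr2* (ENSMUSG00000003476, chromosome 6, 55040043 to 55083010, reverse strand), the receptor that prefers the urocortins, had 0 and 0 counts in P1 GFP+, 2 and 9 in P1 GFP-, 1 and 8 in P6 GFP+ and 3 and 7 in P6 GFP- libraries. The sum of 30 counts over 348730267 gene counts was too low for a test, and the counts of P1 GFP-, P6 GFP+ and P6 GFP- overlapped. A count of 0 allowed up to 0.0655 CPM in P1 GFP+ replicate 1 and up to 0.12 CPM in replicate 2, taking 3 counts as the limit, which covers counting error only. Per kb of exon, P6 GFP+ cells held 113.6 ± 4.71 CPM of *Crhr1* and 0.0317 ± 0.0292 CPM of *Crhr2* (SD, n = 2).

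The sequences before the start sites of both receptor genes differ in composition. RefSeq promoters on GRCm38.p6, from 250 bases before to 50 bases after the start, matched 4 of the 5 members, and the pair of receptor promoters is printed with each CG dinucleotide in capitals:

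Crhr1: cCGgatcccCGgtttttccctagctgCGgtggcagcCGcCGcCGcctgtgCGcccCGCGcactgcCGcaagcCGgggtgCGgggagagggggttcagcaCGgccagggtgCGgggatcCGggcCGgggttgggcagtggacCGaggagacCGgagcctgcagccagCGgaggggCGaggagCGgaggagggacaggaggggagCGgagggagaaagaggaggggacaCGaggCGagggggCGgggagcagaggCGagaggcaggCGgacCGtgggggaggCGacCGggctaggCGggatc
Crhr2: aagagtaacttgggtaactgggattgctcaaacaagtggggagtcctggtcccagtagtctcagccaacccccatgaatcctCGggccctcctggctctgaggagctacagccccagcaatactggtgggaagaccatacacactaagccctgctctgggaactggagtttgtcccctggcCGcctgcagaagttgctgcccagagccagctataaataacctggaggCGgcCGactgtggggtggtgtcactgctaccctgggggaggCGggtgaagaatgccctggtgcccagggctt

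The *Crhr1* window (chr11:104132531-104132830, forward strand) held 75% G and C and 31 CG dinucleotides, more CG dinucleotides than 89.4% of 32851 promoters of the same length. The *Crhr2* window (chr6:55132967-55133266, reverse strand) held 59% G and C and 5 CG dinucleotides, against a median of 52.7% and 7 over all promoters. On NCBIM37 the *Crhr1* window matched 1 place of chromosome 11, which put the RefSeq start 74 bases before the gene start of the NCBIM37 annotation used here.

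The same windows were searched for the cyclic AMP response element TGACGTCA, which reads the same on both strands, and for TATAAA on the gene's strand. The cyclic AMP response element was found in 1 of the 4 member promoters, that of *Ucn*, where it begins 44 bases before the start, and in 1.79% of all promoters. TATAAA was found in *Crhr2* and *Crhbp*, not in *Crhr1* or *Ucn*, and in 8.32% of all promoters. A match describes these letters only.

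The ligand genes among the members were at or near 0 in every group. *Crh* (ENSMUSG00000049796, chromosome 3, 19593401 to 19595396, reverse strand) had 2 counts in P1 GFP- replicate 2, 1 count in P6 GFP- replicate 1 and 0 in the other 6 libraries. *Ucn* (ENSMUSG00000038676, chromosome 5, 31440436 to 31441202, reverse strand), which encodes urocortin, a ligand of both receptors, had 2 counts in P1 GFP+ replicate 2, 1 in P1 GFP- replicate 1, 1 in P6 GFP+ replicate 1 and 0 elsewhere. Neither transcript was detectable at this depth, where 3 counts correspond to between 0.0443 CPM in P6 GFP- replicate 2 and 0.169 CPM in P6 GFP+ replicate 1.

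The other ligand genes of the family are *Ucn2* and *Ucn3*, whose peptides prefer the receptor encoded by *Crhr2*. *Ucn3* had 4 counts over all libraries. *Ucn2* (ENSMUSG00000049699, chromosome 9, 108888208 to 108889209) had the highest level per kb of exon of the 4 ligand genes in every library. It was at 2.95 and 3.78 CPM in P1 GFP+, 0.554 and 0.745 in P1 GFP-, 0.394 and 0.536 in P6 GFP+ and 0.762 and 1.65 in P6 GFP- libraries. The P1 GFP+ libraries lay above the other 6, and the 2 P6 groups did not overlap, with GFP+ cells lower.

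*Ucn2* was higher in GFP+ than in GFP- cells at P1 (log2 fold change 2.44, SE 0.30, adjusted p = 0.00112 by edgeR). Adjusted p by edgeR is that of its quasi-likelihood test, with Benjamini-Hochberg adjustment over all tested genes. The call was lost without P1 GFP+ replicate 2 (adjusted p = 0.0116 by edgeR). At P6 the log2 fold change was -1.35 (SE 0.54, adjusted p = 0.109 by edgeR). Between P1 and P6 in GFP+ cells it was -2.72 (SE 0.36, adjusted p = 0.0104 by edgeR), and the difference between the fractions in the change with age was -3.81 (SE 0.62, adjusted p = 0.0122 by edgeR), both just outside the threshold of 0.01. Over the alternatives tried, the adjusted p of the change in GFP+ cells by edgeR or DESeq2 ranged from 4.15e-06 to 0.0904.

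*Crhbp* (ENSMUSG00000021680, chromosome 13, 96201326 to 96214786, reverse strand), the gene of the binding protein, was the second member with a measurable level. It was at 5.13 and 0.603 CPM in P1 GFP+, 2.90 and 8.003 in P1 GFP-, 6.42 and 32.9 in P6 GFP+ and 12.39 and 12.01 in P6 GFP- libraries. Replicates of a group lay far apart, with P1 GFP+ replicate 2 at 0.118 times replicate 1 (15 and 235 counts) and P6 GFP+ replicate 2 at 5.12 times replicate 1 (982 and 114 counts). GFP+ and GFP- cells overlapped at both ages, while in each fraction both P6 libraries lay above both P1 libraries.

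As fitted on all libraries of a comparison, none of the 5 edgeR tests of *Crhbp* passed the threshold. The log2 fold change between GFP+ and GFP- cells was -0.75 at P1 (SE 0.88, adjusted p = 0.505 by edgeR) and 0.68 at P6 (SE 0.66, adjusted p = 0.474 by edgeR). From P1 to P6 it was 2.79 in GFP+ cells (SE 1.12, adjusted p = 0.135 by edgeR) and 1.34 in GFP- cells (SE 0.41, adjusted p = 0.066 by edgeR). The difference between the fractions in that change was 1.42 (SE 1.29, adjusted p = 0.587 by edgeR). These values moved with single libraries. At P6 the log2 fold change between the fractions was 1.46 without P6 GFP+ replicate 1 (adjusted p = 1.83e-06 by edgeR) and -0.91 without replicate 2 (adjusted p = 0.00229 by edgeR), which passed the threshold in opposite directions. At P1 it was -3.10 without P1 GFP+ replicate 1, -1.25 without P1 GFP- replicate 1, 0.042 without P1 GFP+ replicate 2 and 0.21 without P1 GFP- replicate 2. The P1 difference passed without P1 GFP- replicate 1 (adjusted p = 0.00365 by edgeR) and with no filter on low counts (adjusted p = 0.00954 by edgeR).

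The rise of *Crhbp* from P1 to P6 kept its direction with each library left out, but not its size. In GFP+ cells the log2 fold change ran from 1.14 without P6 GFP+ replicate 2 to 5.12 without P1 GFP+ replicate 1, and in GFP- cells from 0.79 without P1 GFP- replicate 1 to 2.25 without P1 GFP- replicate 2. The change in GFP- cells passed the threshold without P1 GFP- replicate 1 (adjusted p = 0.00644 by edgeR) or replicate 2 (adjusted p = 4.71e-07 by edgeR), with the DESeq2 test (adjusted p = 0.00578), with no filter (adjusted p = 3.85e-08 by edgeR) and with a crossed replicate block (adjusted p = 0.00463 by edgeR). The change in GFP+ cells passed without P1 GFP+ replicate 1 (adjusted p = 0.00113 by edgeR), without P6 GFP+ replicate 1 (adjusted p = 2.41e-07 by edgeR) and with no filter (adjusted p = 9.43e-06 by edgeR). The difference between the fractions in the change ran from -0.17 without P6 GFP+ replicate 2 to 3.75 without P1 GFP+ replicate 1, and it passed with no filter (adjusted p = 0.00114 by edgeR).

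The library with the highest *Crhbp* level, P6 GFP+ replicate 2, also had the highest summed endothelial and glial markers. Markers of other cells rose in it too. Relative to P6 GFP+ replicate 1, mesenchymal markers were at 3.50 and macrophage markers at 2.29 times, beside 3.82 for endothelial and 2.12 for glial markers. Melanocyte markers went from 25.9 to 82.8 CPM and erythroid markers from 20.9 to 76.5 CPM, while supporting cell markers were at 0.746 times. The 4 endothelial markers summed to 45.4 and 173.6 CPM in the P6 GFP+ libraries, 114.4 and 104.9 in P6 GFP-, 23 and 20.5 in P1 GFP+ and 75.9 and 77.8 in P1 GFP-. The 6 Schwann cell and glial markers summed to 1108 and 2347 CPM in P6 GFP+, 1377 and 1628 in P6 GFP-, 418.9 and 360.3 in P1 GFP+ and 751 and 804.6 in P1 GFP- libraries. The 8 neuronal markers summed to 112.4 and 105.3 CPM in P1 GFP+, 313 and 790.2 in P1 GFP-, 138.1 and 181.1 in P6 GFP+ and 233.3 and 188.9 in P6 GFP- libraries. No marker of the endothelial, glial and neuronal lists was at 0 in any library. In P1 GFP- replicate 2 neuronal markers were at 2.53 times and *Crhbp* at 2.76 times replicate 1, while endothelial and glial markers were at 1.02 and 1.07 times. In P1 GFP+ replicate 2 *Crhbp* was at 0.118 times replicate 1, and endothelial, glial and neuronal markers were at 0.891, 0.86 and 0.937 times. The part of other cells in the *Crhbp* level was not tested.

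**Figure D2:**
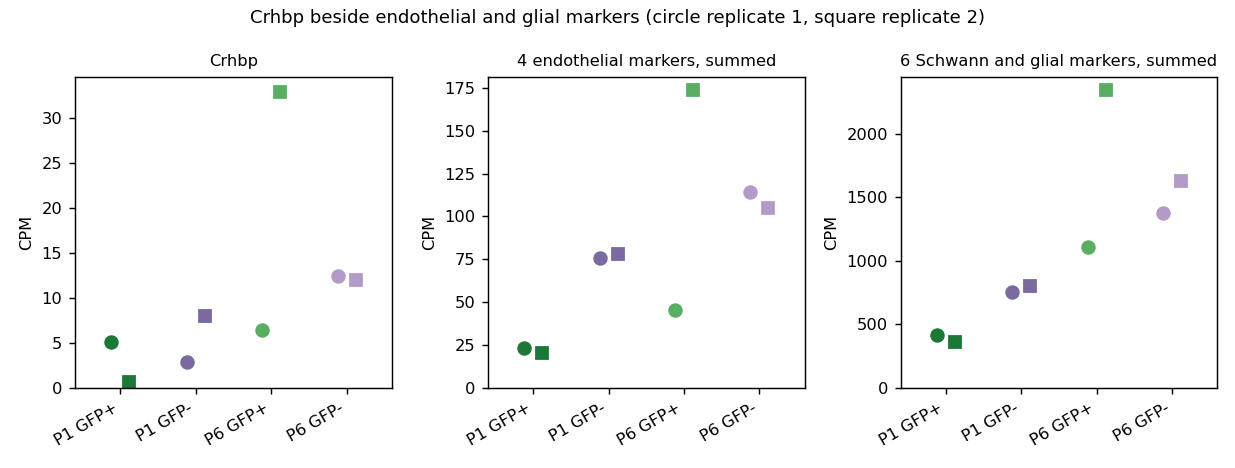
CPM of *Crhbp* (left), summed CPM of 4 endothelial markers (middle) and of 6 Schwann cell and glial markers (right) on linear y axes against group, with circles for replicate 1 and squares for replicate 2. The highest point in each panel is P6 GFP+ replicate 2, at 32.9, 173.6 and 2347 CPM, while at P1 the spread of *Crhbp* within a group is not seen in these marker sums. Mesenchymal, macrophage, melanocyte and erythroid markers, not drawn, were also higher in that library than in P6 GFP+ replicate 1.

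Of the 5 members, 2 (*Crhr1* and *Crhbp*) passed the filter on low counts in every comparison and 3 (*Crhr2*, *Crh* and *Ucn*) did not. At P1, where 16.6% of 18682 tested genes were higher and 20.7% lower in GFP+ cells, *Crhr1* was among the higher genes, which its choice fixed, and *Crhbp* was not called. At P6 7.72% of 18294 genes were higher and 5.19% lower, and the result for these 2 genes was alike. In GFP+ cells 2.86% of 17213 genes were higher and 1.95% lower at P6 than at P1. *Crhr1* was among the former, which its choice fixed as well. In GFP- cells 5.04% of 18920 genes were higher and 2.34% lower at P6. *Crhbp* was not called there, and *Crhr1*, whose GFP- levels entered its choice, is given no test. The difference between the fractions in the change with age was called for 0.946% of 19233 genes in the direction of GFP+ cells and 0.988% in the direction of GFP- cells, and not for *Crhbp*.

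The receptors encoded by *Crhr1* and *Crhr2* belong to the class B peptide hormone receptors, and their 13 relatives were compared per kb of exon. In GFP+ cells *Crhr1* came first of these 15 receptors at both ages, with 9.45 ± 0.18 CPM per kb at P1 and 113.6 ± 4.71 at P6 (SD, n = 2). *Pth1r*, the receptor of parathyroid hormone, came second, with 2.08 ± 0.502 and 3.35 ± 1.76 CPM per kb, and its libraries did not overlap with those of *Crhr1* at either age. The levels of *Crhr1* chose it while those of its relatives did not, so this order is a description and no test. In GFP- cells *Pth1r* came first, with 9.73 ± 0.764 CPM per kb at P1 and 23.8 ± 3.5 at P6, and *Crhr1* was at rank 9 and rank 8. *Crhr2* was last of the 15 in P1 GFP+ and P6 GFP- cells.

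**Figure D3:**
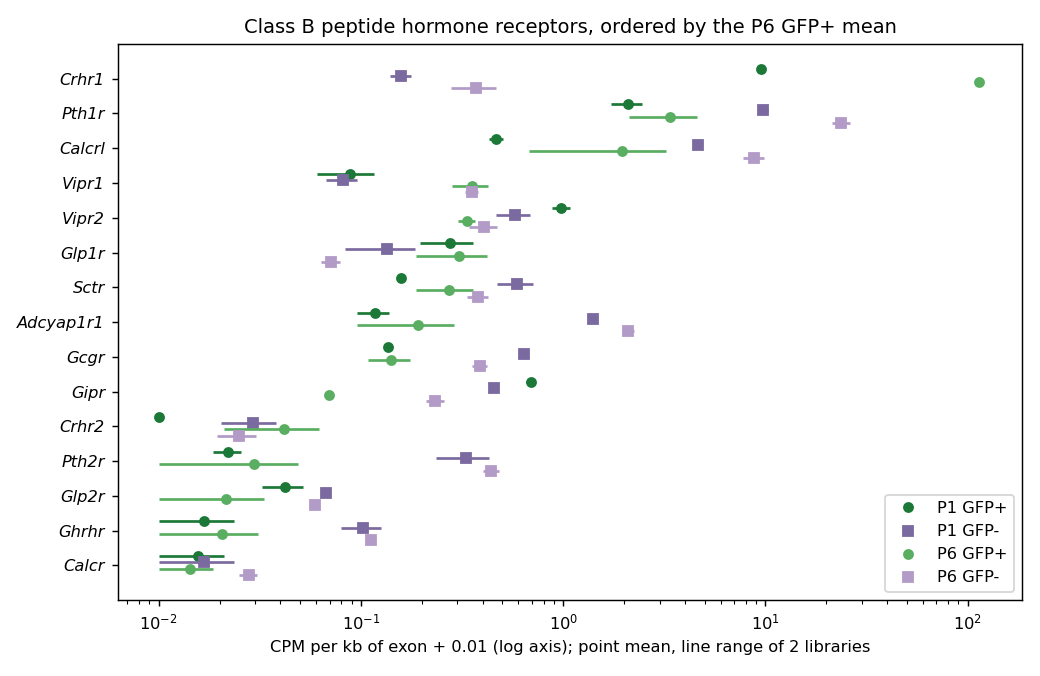
CPM per kb of exon plus 0.01 on a log x axis for 15 class B peptide hormone receptors (y axis, ordered by the P6 GFP+ mean), with points for the mean of 2 libraries, lines for their range, circles for GFP+ and squares for GFP- groups. *Crhr1* is the farthest right in both GFP+ groups, at 9.45 and 113.6 CPM per kb, while *Pth1r* is the farthest right in both GFP- groups.

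Of the other class B receptors and the RAMPs, small membrane proteins that pair with some of them, 14 of 16 were tested at P1. In GFP+ cells 1 (7.14%) was higher and 7 (50%) were lower, against 16.6% and 20.7% of all tested genes. *Adcyap1r1*, the receptor of the peptide PACAP, was at 0.567 and 0.844 CPM in GFP+ and 9.501 and 8.92 CPM in GFP- cells at P1 (log2 fold change -3.64, SE 0.26, adjusted p = 0.000126 by edgeR). It was also lower in GFP+ cells at P6, by a log2 fold change of -3.46 (SE 0.50, adjusted p = 0.00647 by edgeR). *Calcrl*, the receptor of CGRP and adrenomedullin, had 2.4 and 2.05 CPM in GFP+ and 22.3 and 23.1 CPM in GFP- cells at P1. Its log2 fold change was -3.23 (SE 0.17, adjusted p = 4.51e-05 by edgeR).

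*Ramp3* was the only gene of this list that was higher in GFP+ cells, at both ages. It stood at 76.3 and 88.9 CPM in P1 GFP+, 41.5 and 51.9 in P1 GFP-, 68.9 and 41.4 in P6 GFP+ and 8.92 and 9.34 in P6 GFP- libraries. It fell with age in GFP- cells (log2 fold change -2.16, SE 0.15, adjusted p = 0.000493 by edgeR). At P6, 1 of 14 tested genes of the list (7.14%) was higher and 3 (21.4%) were lower, against 7.72% and 5.19% of all tested genes. Between the ages in GFP+ cells 0 of 9 were called by edgeR. Of all tested genes, 2.86% were higher and 1.95% lower there.

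Over all 9 lists of pathway genes, which together hold 105 genes with a row in the files, 93 were tested at P1, of which 13 (14%) were higher and 41 (44.1%) were lower in GFP+ cells, against 16.6% and 20.7% of all tested genes. The median log2 fold change of the tested pathway genes was -0.50 at P1, against 0.007 over all tested genes. At P6 92 were tested, and 8 (8.7%) were higher and 11 (12%) lower, against 7.72% and 5.19% of all tested genes, with a median of -0.48 against -0.017. The shares of pathway genes that were higher lay near those of all genes at both ages. The P6 count depended on single libraries, with 0 pathway genes called without P6 GFP- replicate 1 or without replicate 2, and 46 and 58 called without P6 GFP+ replicate 1 and replicate 2.

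Of 25 genes for Gs proteins, adenylyl cyclases and targets of cyclic AMP, the branch to which the CRH receptors mainly couple, 1 (4%) was higher and 13 (52%) were lower in GFP+ cells at P1, against 16.6% and 20.7% of all tested genes. At P6 2 (8%) were higher and 2 (8%) lower, against 7.72% and 5.19%, so that the higher share lay near that of all genes. *Gnas*, which encodes the Gs alpha subunit, was at 635.6 to 668.7 CPM in P1 GFP+ and at 905.7 to 981.9 CPM in P6 GFP+ cells, and was not called in any comparison. *Adcy1*, a cyclase stimulated by calcium and calmodulin, was at 22.6 and 23.8 CPM in P1 GFP+ and at 242.8 and 274 CPM in P1 GFP- libraries. Its log2 fold change was -3.38 (SE 0.10, adjusted p = 1.09e-05 by edgeR). The cyclase genes *Adcy4* and *Adcy7* and *Rapgef3*, an exchange factor activated by cyclic AMP, were also among the largest differences at P1, all lower in GFP+ cells. *Adcy6* was at 220.4 and 256.4 CPM in P1 GFP+, 268.7 and 242.7 in P1 GFP-, 123.9 and 143.5 in P6 GFP+ and 202.1 and 245 in P6 GFP- libraries. Like *Gnas*, it was not called in any comparison.

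The regulatory subunits of protein kinase A, which hold the kinase inactive until cyclic AMP binds, moved in different ways. *Prkar2a*, the type II alpha subunit, was at 226.7 and 219.8 CPM in P1 GFP+ and 58.3 and 70.3 CPM in P1 GFP- cells, and was higher in GFP+ cells at both ages. Its P6 call was lost with library totals (adjusted p = 0.0103 by edgeR). Like the P6 call of every pathway gene, it was also lost without P6 GFP- replicate 1 or 2. Its log2 fold change was 1.19 and 0.924 in these fits. *Prkar2b*, the type II beta subunit, was at 38.6 and 38 CPM in P1 GFP+, 57.3 and 59.3 in P1 GFP-, 86 and 79.3 in P6 GFP+ and 30 and 33.4 in P6 GFP- libraries. GFP+ cells were the lower fraction at P1 and the higher one at P6, with no overlap at either age. The log2 fold change of *Prkar2b* from P1 to P6 was 1.20 in GFP+ cells (SE 0.12, adjusted p = 0.00587 by edgeR) and -0.69 in GFP- cells (SE 0.11, adjusted p = 0.00707 by edgeR). The call in GFP- cells was lost with a replicate block (adjusted p = 0.0171 by edgeR), with all 8 libraries in the fit (0.0112) and without P6 GFP- replicate 1 (0.0696) or 2 (0.0437). The call in GFP+ cells was lost without P1 GFP+ replicate 1 (adjusted p = 0.0192 by edgeR) or 2 (0.0702).

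Of the 10 phosphodiesterase genes that act on cyclic AMP, 2 (20%) were higher and 5 (50%) lower in GFP+ cells at P1. Over all tested genes these shares were 16.6% and 20.7%. *Pde3a* was at 1.11 and 1.09 CPM in P1 GFP+ and 41.3 and 31.3 CPM in P1 GFP- cells (log2 fold change -4.93, SE 0.22, adjusted p = 2.48e-05 by edgeR). *Pde3b* was at 30.9 and 29.6 CPM in P1 GFP+ and 3.77 and 7.06 CPM in P6 GFP+ libraries, and at 20.4 to 27.9 CPM in all GFP- libraries. It fell with age in GFP+ cells (log2 fold change -2.38, SE 0.31, adjusted p = 0.00953 by edgeR). That call was lost when libraries were scaled by their totals and when P1 GFP+ replicate 2 was left out.

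CRH receptors can also act through Gq, phospholipase C and protein kinase C. Of the 13 genes of this branch, 2 (15.4%) were higher and 6 (46.2%) lower in GFP+ cells at P1. At P6 2 (15.4%) were higher and 0 lower. Over all tested genes the shares were 16.6% and 20.7% at P1 and 7.72% and 5.19% at P6. The 2 higher genes were *Itpr2* and *Prkcd* at both ages. *Itpr2*, an inositol trisphosphate receptor that releases calcium from internal stores, was at 394 to 496.1 CPM in the 4 GFP+ libraries and at 82.5 to 127.6 CPM in the 4 GFP- libraries. Its log2 fold change was 1.97 at P1 (SE 0.17, adjusted p = 0.000265 by edgeR) and 2.36 at P6 (SE 0.20, adjusted p = 0.00159 by edgeR).

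Arrestins and receptor kinases stop signalling at G protein-coupled receptors, and PDZ scaffolds such as those of the Dlg family bind receptor tails. Of 11 tested genes of this list, 1 (9.09%) was higher and 3 (27.3%) were lower in GFP+ cells at P1. At P6 0 were higher and 1 (9.09%) lower. Over all tested genes the shares were 16.6% and 20.7% at P1 and 7.72% and 5.19% at P6. *Arrb1*, which encodes beta-arrestin 1, was at 27 and 23.2 CPM in P1 GFP+, 69.5 and 80 in P1 GFP-, 58.4 and 78.8 in P6 GFP+ and 54.1 and 57 in P6 GFP- libraries. It rose in GFP+ cells with age (log2 fold change 1.54, SE 0.19, adjusted p = 0.00821 by edgeR), and the difference between the fractions at P6 did not pass the threshold. The call with age was lost with library totals (adjusted p = 0.0111 by edgeR) and without P1 GFP+ replicate 2 (0.0535). *Arrb2*, which encodes beta-arrestin 2, was lower in GFP+ than in GFP- cells at P6, by a log2 fold change of -1.03 (SE 0.16, adjusted p = 0.00847 by edgeR). That call was lost with library totals or a replicate block (adjusted p = 0.0108 by edgeR in both) and without P6 GFP- replicate 1 (0.0659) or 2 (0.103).

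The peptides of the family are cut from precursors by prohormone convertases and amidated by the enzyme encoded by *Pam*. *Pcsk2*, the gene of prohormone convertase 2, was at 2.53 and 2.37 CPM in P1 GFP+, 68.9 and 66.8 in P1 GFP-, 99.3 and 86 in P6 GFP+ and 34.4 and 28.7 in P6 GFP- libraries. GFP+ cells were far below GFP- cells at P1 and above them at P6, without overlap at either age. The log2 fold change between the fractions was -4.67 at P1 (SE 0.12, adjusted p = 9.99e-06 by edgeR) and 1.55 at P6 (SE 0.18, adjusted p = 0.00377 by edgeR).

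From P1 to P6 *Pcsk2* rose in GFP+ cells by a log2 fold change of 5.32 (SE 0.18, adjusted p = 0.00156 by edgeR) and fell in GFP- cells (log2 fold change -0.91, SE 0.14, adjusted p = 0.0058 by edgeR). The fall in GFP- cells did not pass with all 8 libraries in the fit (adjusted p = 0.0101 by edgeR) or without P6 GFP- replicate 1 (0.016) or 2 (0.0375). The annotation has 2 genes on the opposite strand that overlap *Pcsk2*, *C630020P19Rik* and *Gm12360*. Reads on several genes were left out of the counts, and the use of strand is not given. The effect of this overlap on the *Pcsk2* counts was not tested. *Pam* was lower in GFP+ cells at both ages and rose in GFP+ cells with age, from 55.4 and 56.4 CPM to 113.2 and 159.5 CPM (log2 fold change 1.37, SE 0.18, adjusted p = 0.00937 by edgeR). Its call with age was lost with library totals (adjusted p = 0.0141 by edgeR) and without P1 GFP+ replicate 1 (0.0125) or 2 (0.0582). *Pcsk1*, the gene of the other main convertase of peptide precursors, was at 1.24 and 1.41 CPM in P1 GFP+ and 0.264 and 0.285 CPM in P1 GFP- cells.

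**Figure D4:**
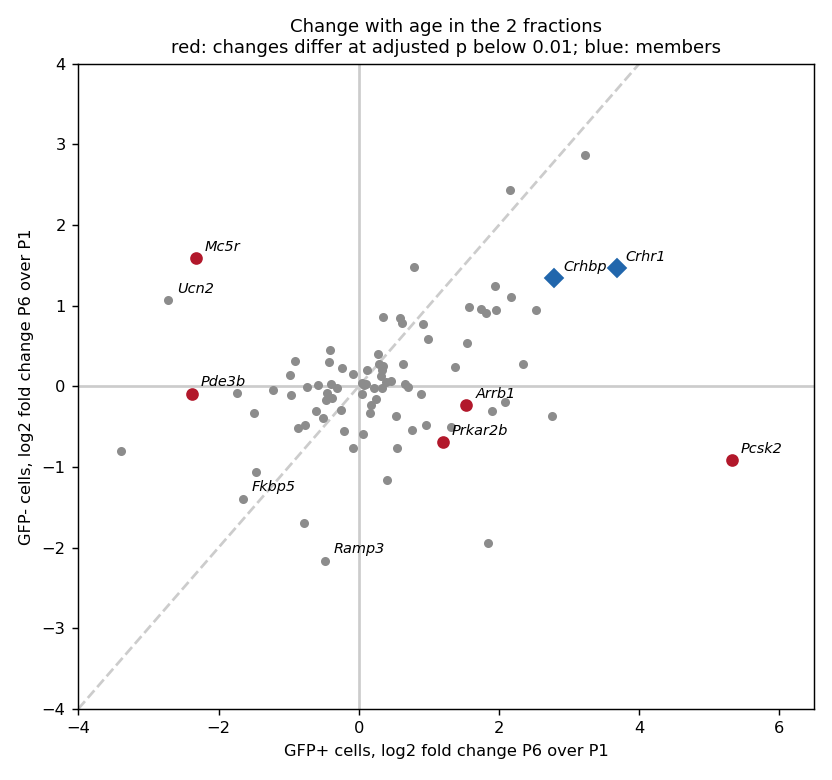
Log2 fold change from P1 to P6 in GFP+ cells (x axis) against that in GFP- cells (y axis) for 87 genes tested in both, with members as blue diamonds, pathway genes as grey points, and pathway genes whose changes differ between the fractions at an adjusted p below 0.01 in red. *Pcsk2* lies farthest to the right, at 5.32 and -0.91, *Mc5r* and *Pde3b* lie to the left, and the dashed line marks equal change in both fractions.

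Between the ages, 4 of 86 tested pathway genes (4.65%) were higher and 2 (2.33%) were lower at P6 in GFP+ cells, against 2.86% and 1.95% of all tested genes, with a median log2 fold change of 0.26 against -0.002 over all genes. The higher genes were *Prkar2b*, *Arrb1*, *Pcsk2* and *Pam*, and the lower ones *Fkbp5* and *Pde3b*. In GFP- cells 9 of 94 (9.57%) were higher and 6 (6.38%) lower, against 5.04% and 2.34% of all tested genes, with a median of -0.015 against -0.022. Scaled by library totals, the split of these calls was 2 higher and 2 lower in GFP+ cells and 4 higher and 6 lower in GFP- cells. In GFP+ cells 1 pathway gene was called without P1 GFP+ replicate 2, and 53 and 50 were called without P6 GFP+ replicate 1 and replicate 2. In GFP- cells 2 and 3 were called without P6 GFP- replicate 1 and replicate 2.

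Downstream of CRH in the pituitary stand the precursor of ACTH, encoded by *Pomc*, and the melanocortin receptors that its products activate. *Pomc* was at 0.373 to 1.63 CPM over the 8 libraries and was not called in any comparison. *Mc2r*, the receptor of ACTH in the adrenal gland, had 2 to 10 counts in a library. *Mc5r* was at 8.2 and 8.2 CPM in P1 GFP+, 0.237 and 0.317 in P1 GFP-, 1.01 and 2.01 in P6 GFP+ and 0.778 and 0.709 in P6 GFP- libraries. At P1 it was higher in GFP+ cells by a log2 fold change of 4.95 (SE 0.27, adjusted p = 4.73e-05 by edgeR), and at P6 the log2 fold change was 1.04 (SE 0.44, adjusted p = 0.123 by edgeR). *Mc4r* had 0 counts in all 4 GFP+ libraries, and at P1 its level was at least 13.3-fold lower in GFP+ than in GFP- cells, against a limit of 3 counts over the group.

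The adrenal end of the axis was represented by genes of corticosteroid synthesis, metabolism and reception. *Cyp11b2* had 0 counts in all libraries, *Cyp11b1*, *Hsd3b1* and *Cyp21a1* had at most 3 in any library, and *Star*, which carries cholesterol into mitochondria for steroid synthesis, was at 10.8 and 11.5 CPM in P1 GFP+ cells. *Nr3c1*, the glucocorticoid receptor gene, was at 23.9 and 23.1 CPM in P1 GFP+, 134.3 and 104 in P1 GFP-, 48.5 and 83 in P6 GFP+ and 210.7 and 200.3 in P6 GFP- libraries. It was lower in GFP+ cells at P1 (log2 fold change -2.24, SE 0.15, adjusted p = 9.14e-05 by edgeR) and at P6 (-1.65, SE 0.27, adjusted p = 0.009 by edgeR). The P6 call was lost with library totals (adjusted p = 0.0135 by edgeR) and without P6 GFP- replicate 1 (log2 fold change -1.56) or 2 (-1.71).

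*Fkbp5*, a chaperone of the glucocorticoid receptor whose gene is a known target of that receptor, was at 57.3 and 58.4 CPM in P1 GFP+, 24.1 and 24.5 in P1 GFP-, 18.3 and 16.3 in P6 GFP+ and 8.76 and 7.42 in P6 GFP- libraries. It fell with age in both fractions, the log2 fold change being -1.65 in GFP+ cells (SE 0.14, adjusted p = 0.00402 by edgeR) and -1.39 in GFP- cells (SE 0.16, adjusted p = 0.00233 by edgeR). The first was lost without P1 GFP+ replicate 2 (adjusted p = 0.0265 by edgeR), and the second without P6 GFP- replicate 1 (0.0156) or 2 (0.024). Over this list, 3 of 8 tested genes (37.5%) were higher and 3 (37.5%) lower in GFP+ cells at P1. At P6 1 of 7 (14.3%) was higher and 1 (14.3%) lower. Over all tested genes the shares were 16.6% and 20.7% at P1 and 7.72% and 5.19% at P6.

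The profile of *Crhr1* over the 8 libraries was set beside those of 12111 genes with a mean of at least 10 CPM in a group, by the root mean square difference of log2(CPM + 1) after centring each gene. The closest were *Gm13782* (difference 0.443, Pearson r = 0.990), *Inpp5j* (0.561, r = 0.985), *Rassf6* (0.79, r = 0.981), *2010317E24Rik* (0.877, r = 0.990), *Prdm12* (0.905, r = 0.991), *Rnd1* (0.907, r = 0.970), *Tsga14* (0.962, r = 0.953) and *Rorb* (0.979, r = 0.987). The correlations are over 8 libraries that share 4 groups and are given as a description. *Inpp5j*, which encodes an inositol polyphosphate 5-phosphatase, had group means of 31 CPM in P1 GFP+, 3.61 in P1 GFP-, 677.5 in P6 GFP+ and 4.81 in P6 GFP- cells. *Rorb*, a nuclear receptor gene, had means of 30.7, 1.24, 108.5 and 3.44 CPM in the same order. *Gm13782* and *Tsga14* overlap on opposite strands, as do *Inpp5j* and *Pla2g3*, and *Prdm12* and *Gm13425*. Reads on several genes were left out of the counts, and the effect of these overlaps was not tested.

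**Figure D5:**
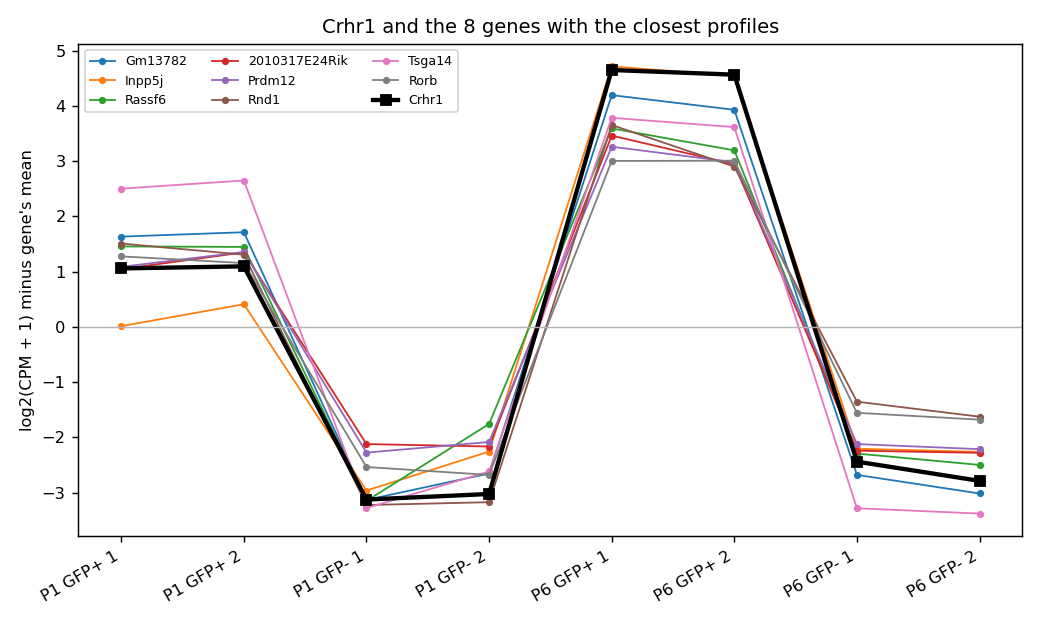
log2(CPM + 1) minus the gene's mean over 8 libraries (y axis) for *Crhr1* (black squares) and the 8 genes with the smallest difference from it (coloured lines), library by library (x axis). All 9 genes are highest in the 2 P6 GFP+ libraries and lowest in the 4 GFP- libraries, and *Crhr1* and *Inpp5j* have the highest points at P6.

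The genes beside *Crhr1* on chromosome 11 of NCBIM37 were examined, the nearest 3 with any count on either side. No other annotated gene overlaps *Crhr1*. Before it lie *Wnt3*, *Nsf* and *Arf2*, of which *Arf2* is the nearest at 147518 bases, and after it *4933407P14Rik*, *Mapt* and *Gm11659*. *4933407P14Rik* (ENSMUSG00000049506, 104047641 to 104052477, same strand) begins 10804 bases after the end of *Crhr1*. It had 34 and 72 counts in the P6 GFP+ libraries and 0 in the other 6. Its pooled level of 2.23 CPM in P6 GFP+ cells was at least 96-fold higher than in P6 GFP- cells and at least 52.5-fold higher than in P1 GFP+ cells, against a limit of 3 counts over each group. It passed the filter on low counts only through the P6 GFP+ libraries, so no test is given.

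The other neighbours had other patterns. *Nsf*, which encodes a fusion factor of membrane traffic, was at 41 to 54.5 CPM in all 8 libraries. *Arf2* was at 31.9 to 36.3 CPM in GFP+ and 66.3 to 75 CPM in GFP- libraries. *Mapt*, which encodes the neuronal protein tau, was highest in P1 GFP- replicate 2, at 139.8 CPM, and lay at 5.57 to 10.7 CPM in GFP+ libraries.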

How the data were processed

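The 8 libraries were grouped by their labels. The values the authors deposited are raw counts per Ensembl gene with no normalization. Per the labels, paired reads of 100 bases were aligned to mm9 (NCBIM37), and the submitters' processing notes name TopHat 1.4.0, HTSeq and DESeq 1.9.2. The counting mode and the use of strand are not given in the sources used here. Per the labels, only cDNA from few cells was amplified before library preparation, and the study's methods give libraries of freshly dissected cochleas more cells than that limit. Reads on no gene, on several genes or at several places made up 23.8% to 35.3% of a library and were left out, so genes with near-identical copies are uncertain. Depth ranged from 17769024 to 67695039 gene counts, and intervals and limits cover counting error only.

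CPM were computed over gene counts, and per kb over merged exons of the annotation of NCBIM37 (34391 of 36536 genes). Each comparison was fitted on its 4 libraries with edgeR 4.0.16 in R 4.3.3 (filterByExpr with minimum count 10 and minimum total 15, TMM, quasi-likelihood test, Benjamini-Hochberg adjustment over all tested genes), and a gene was called at an adjusted p below 0.01. The difference between the fractions in the change with age was tested as an interaction term in a fit of all 8 libraries. Standard errors were derived from the log2 fold change and its F statistic. The procedure was tested on simulated counts. The members and gene lists were chosen with earlier results of these data known. Named genes were the members, up to 4 called genes per list and comparison with the largest change, genes near 0 that stand for a pathway step, the 8 genes closest to *Crhr1* and its 3 neighbours on either side. *Gnas*, *Adcy6*, *Prkar2a* and *Ramp3* at P1, *Pomc* and *Star* were named after their values were seen. Of 166 listed genes, 165 matched a row, and Asip did not. The replicates are duplicate samples of sorted cells, so p-values measure the spread between these samples, which may be technical, and an exact permutation test of 2 against 2 libraries cannot give p below 0.333. Alternatives were DESeq2 size factors, library totals, the DESeq2 1.42.0 test, no filter, a fit of all 8 libraries, a replicate block, a fold change above 4, and each library left out. The cultures with a Notch inhibitor were not analysed here.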

Additional observations from a re-analysis of the deposited data

Results flagged for a closer look

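For 5 pathway genes the change from P1 to P6 differed between GFP+ and GFP- cells in the test of that difference over all 8 libraries (edgeR's quasi-likelihood test, adjusted p below 0.01). The log2 change in GFP+ cells minus that in GFP- cells was 6.21 for *Pcsk2*, the convertase gene (adjusted p = 9.28e-05 by edgeR), and 1.87 for *Prkar2b*, the type II beta regulatory subunit of protein kinase A (adjusted p = 0.00134 by edgeR). It was -3.92 for *Mc5r*, the melanocortin receptor (adjusted p = 0.00521 by edgeR). It was 1.75 for *Arrb1*, the gene of beta-arrestin 1 (adjusted p = 0.00526 by edgeR), and -2.31 for *Pde3b*, the phosphodiesterase (adjusted p = 0.00866 by edgeR).

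Refitted in other ways at the same threshold, the call for *Pcsk2* held in all 13 fits and that for *Prkar2b* in the 5 fits that kept every library. A fold change above 4 was not asked of this difference. The calls for *Mc5r* and *Arrb1* were lost with a replicate block, and that for *Pde3b* with a replicate block and with library totals. Of the 5, only *Pcsk2* kept its call with each library left out in turn. *Crhr1* is not included, because its values chose it. Groups of 2 libraries are too small for a search for outlying samples.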

How the results depend on the processing

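The counts of pathway genes called, 54, 19, 6, 15 and 5 in the 5 comparisons, were 54, 23, 6, 15 and 5 with DESeq2 size factors and 57, 14, 4, 10 and 5 with library totals, within 1.5 times in each. They moved with no filter on low counts to 44 (P6), 36 (GFP+ P6 against P1), 29 (GFP- P6 against P1) and 22 (interaction), from 19, 6, 15 and 5, and with the DESeq2 test to 43, 27, 24 and 15. With all 8 libraries in the fit they were 43, 23 and 4 in the first 3 of these. Called at a fold change above 4 as well, 26 genes passed at P1 in place of 54, 9 at P6, 2 in GFP+ cells and 3 in GFP- cells between the ages.

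With each library left out in turn, the count ranged from 29 to 68 at P1, with 31 and 29 without P1 GFP+ replicate 1 and 2. At P6 it ranged from 0 to 58, in GFP+ cells between the ages from 1 to 53, and in GFP- cells from 2 to 30, with 30 without P1 GFP- replicate 1 and 2 and 3 without P6 GFP- replicate 1 and 2. For the interaction it ranged from 1 to 19, with 19 and 11 without P6 GFP+ replicate 1 and 2, 3 and 2 without P1 GFP- replicate 1 and 2, and 1 without any one P1 GFP+ or P6 GFP- library. In these fits the group with 1 library left is assumed to vary like the other, and the cause of the movements was not tested. With library totals the median log2 fold change of all genes was -0.213 in GFP- cells between the ages, against -0.022 with TMM, and 0.155 for the interaction against 0.031, where 4 genes were called in the direction of GFP+ cells and 1 in that of GFP- cells.

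Replicate numbers link no samples in the labels, and the differences between replicates of any pair of groups correlated from -0.277 to 0.0855 across genes. With a replicate block the counts were 49, 24, 9, 12 and 2 in the 5 comparisons. A crossed replicate block for GFP- cells between the ages, chosen after seeing the data because of the correlation of -0.277, called 26 genes. Leaving aside 3 named calls against a group at 0 counts, 25 of 75 held at the same threshold in every other fit and 49 in every other fit that kept all libraries. Of the 25, 22 were at P1 and 0 at P6, and 20 also had a fold change above 4. No called value changed sign. Of 109 values of named results not called, among them those of *Crhr1* in GFP- cells, 21 passed the threshold under an alternative. In libraries of this depth, the members *Crhr2*, *Crh* and *Ucn* were too low to compare between groups.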

Other observations

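The genes whose profiles over the 8 libraries came closest to that of *Crhbp* were looked up by the measure used for *Crhr1*, after the *Crhbp* values had been seen. They were *Ptprb* (difference 0.543, Pearson r = 0.901), *Vmo1* (0.586, r = 0.880), *Gldn* (0.589, r = 0.889), *Cldn5* (0.613, r = 0.874), *A330049M08Rik* (0.615, r = 0.896), *Mag* (0.618, r = 0.864), *Flt1* (0.621, r = 0.863) and *Eltd1* (0.644, r = 0.851). *Ptprb*, *Cldn5*, *Flt1* and *Eltd1* are known from endothelial cells, and *Gldn* and *Mag* from Schwann cells. *Vmo1* and *A330049M08Rik* are not assigned to a cell type here. *Flt1* was at 4.17 and 3.46 CPM in P1 GFP+, 13.5 and 12.2 in P1 GFP-, 13.7 and 45.3 in P6 GFP+ and 21.6 and 16.8 in P6 GFP- libraries. *Mag* was at 2.14 and 1.85, 3.96 and 4.39, 10.6 and 23.7, and 12.3 and 15.8 CPM in the same order. *Vmo1* was at 6.04 and 1.53, 11.4 and 18.8, 13.2 and 30.2, and 15.7 and 11.3 CPM. The source of the *Crhbp* transcripts was not tested. Among the 8 genes closest to *Crhr1*, no gene is shared with this list.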
